A study of Homo sapiens with 4 samples.

Results

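RSAD2, CMPK2, XAF1, IFI44, IFI44L, IFI27, IFI6, IFI35, SAMD9 and SAMD9L are effector genes of the interferon response, and their transcripts were compared between A549 cells that overexpress CBX7 and Control cells. The genes were taken by symbol, and 10 of 10 were found among the 28278 genes of the deposited count table. They were selected on their difference in this same comparison, so that difference is described below with no test. A549 cells derive from a human adenocarcinoma of the lung. The labels state that lentiviral infection brought in either a CBX7 expression construct (genotype CBX7 overexpression, OE_CBX7, 2 libraries) or a control construct (genotype WT, Control, 2 libraries), and stable lines were made from each. Both lines were grown in the same serum-containing medium, RNA was taken with Trizol, and RNA sequencing libraries were made by a standard Illumina procedure. The sources used here do not give the promoter of the constructs, whether a line is 1 clone or a pool, or whether libraries of a line came from separate cultures. The p-values below therefore set the difference between groups only against the spread of these libraries within a group, which may be technical. No untransduced A549 cells were analysed here.

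CBX7 is a chromobox subunit of Polycomb repressive complex 1. Type I and type III interferons bind receptors at the cell surface, the kinases JAK1 and TYK2 phosphorylate STAT2 among others, and STAT2 acts with IRF9 in the factor ISGF3. ISGF3 binds the interferon-stimulated response element, a pair of GAAA half-sites (TTTC on the other strand), in the promoters of interferon-stimulated genes. The products of those genes act at many steps of viral infection, and most of the genes described here are used as markers of an interferon response in epithelial cells.

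Promoter sequence was read from RefSeq (GRCh38.p14) to show what the promoters of these genes share in their letters. All 10 genes matched by symbol, with 16 annotated starts and a window of 250 bases before to 50 bases after each start. The motif searched on both strands was GAAA, any 2 bases, GAAA. It was present in the windows of 6 of the 10 genes, RSAD2, IFI44, IFI44L, IFI27, IFI6 and SAMD9. Over all genes it was present in 3.57% of 35116 RefSeq windows of the same length, or 4.38% of 27305 genes. In RSAD2 the match lay only in the window of start 2 (annotated start chr2:6877777), inside the gene span. The window of start 1 held 0 matches of this spacing. A spacing of 1 base in place of 2 was added after the sequences had been seen. It was present in 6 of the 10, RSAD2, CMPK2, XAF1, IFI44, IFI35 and SAMD9, and in 3.12% of all windows, or 3.87% of genes. Over the 250 bases before the start alone XAF1 lost its match, which left 5 of the 10, beside 3.34% of genes. The windows of SAMD9L held neither. A match is a description of the letters, and the absence of one says only that these letters are not in the window.

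The stretches below show matches of 8 of the 10 genes, each read 5′ to 3′ on the strand of its gene with the half-site pairs in capitals. Where matches of both spacings overlap, as in IFI44 and SAMD9, the capitals run through both.
RSAD2, start 1, chr2:6865815-6865843 (+): gcgttgcgggGAAACGAAAgccggaggcc
CMPK2, start 2, chr2:6865820-6865845 (-): tgggcctccggcTTTCGTTTCcccgc
RSAD2, start 2, chr2:6877620-6877653 (+): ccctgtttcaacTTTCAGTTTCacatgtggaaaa
IFI44, start 1, chr1:78649759-78649788 (+): gggcacactgagTTTCAGTTTCCTTTCtct
IFI44L, chr1:78620365-78620394 (+): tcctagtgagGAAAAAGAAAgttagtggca
IFI27, chr14:94110616-94110662 (+): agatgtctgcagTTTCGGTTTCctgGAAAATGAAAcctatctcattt
IFI6, chr1:27672264-27672360 (-): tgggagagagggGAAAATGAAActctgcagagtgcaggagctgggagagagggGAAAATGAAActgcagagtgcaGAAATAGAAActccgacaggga
IFI35, chr17:43006756-43006783 (+): agggatttcacgGAAATGAAAgtggaag
SAMD9, chr7:93118094-93118132 (-): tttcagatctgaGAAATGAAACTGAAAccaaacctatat

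**Figure D1:**
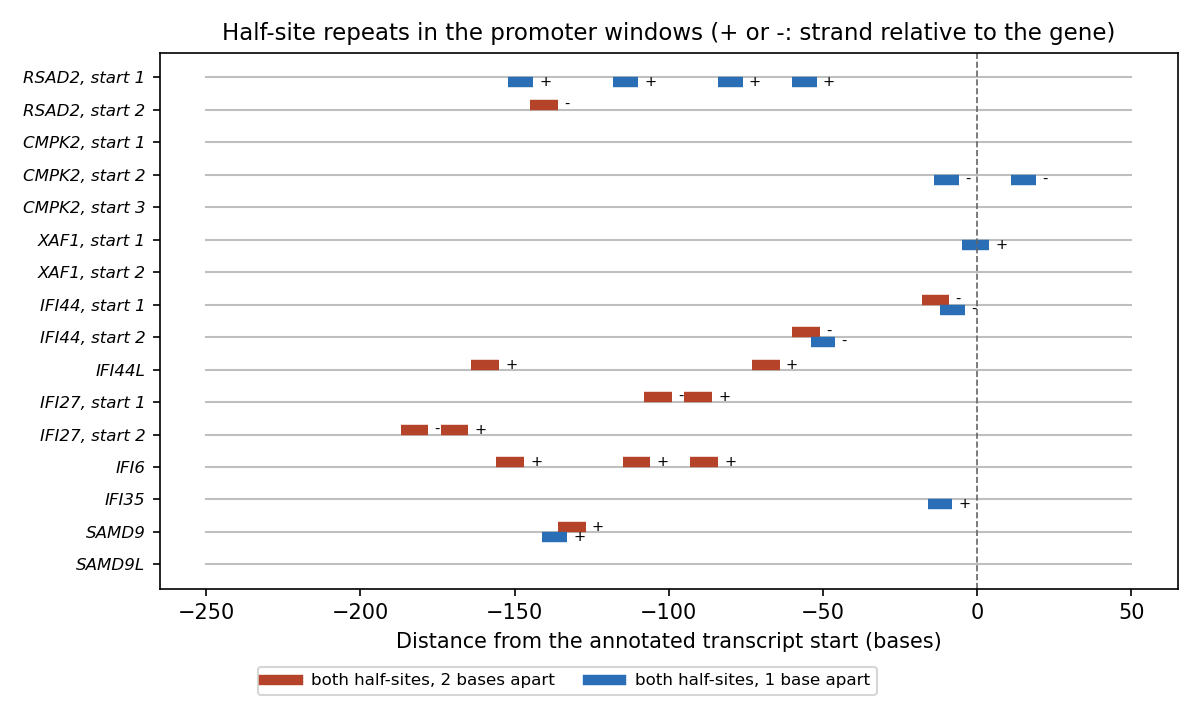
Positions of the half-site pairs in the 16 promoter windows of the 10 genes, with distance in bases from each annotated start (dashed line at the start) on the x axis, pairs 2 bases apart in red and pairs 1 base apart in blue. IFI6 has 3 red pairs, RSAD2 start 1 has 4 blue pairs, and the window of SAMD9L is empty.

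The stretch of IFI6 holds 3 pairs 2 bases apart, whose first bases are at -156, -115 and -93 from the start. The first 2 of these lie in a run of 29 bases that occurs at 2 places in the window. IFI27 holds a pair on each strand, 3 bases apart from each other, and its second pair shares the run ggaaaatgaaac, 12 bases, with IFI6. The RSAD2 start 1 and CMPK2 start 2 stretches are the same site read on opposite strands. Those starts lie 66 bases apart on opposite strands, and their windows share 165 identical bases (chr2:6865770-6865934), which hold 2 pairs 1 base apart. The windows of RSAD2 start 1 and CMPK2 start 2 were 75.3% and 74.7% G or C, against a median of 58.7% over all windows, and those of IFI44 start 1 and SAMD9L were 35% and 34.3%.

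The libraries held 90765502 and 88861255 estimated counts in OE_CBX7 cells, against 88091494 and 69877585 in Control cells. CBX7 had 1783 and 1550 counts in OE_CBX7 libraries, against 689 and 596 in Control libraries, and its log2 fold change was 1.11 (SE 0.156; adjusted p = 0.000141 by edgeR's quasi-likelihood test with Benjamini-Hochberg adjustment). SOCS3, the gene in the series title and a feedback inhibitor of cytokine signalling, averaged 9.67 ± 2.04 CPM in OE_CBX7 cells and 42.3 ± 2.11 CPM in Control cells (SD, n = 2 each). CPM is the usual depth-normalised count, here with TMM-scaled library totals. The 10 markers of the A549 line summed to 24719 and 27240 CPM in OE_CBX7 libraries, against 20698 and 22525 CPM in Control libraries. Among them AKR1B10, AKR1C1 and GCLM were called higher, while the keratins KRT8 (log2 fold change -0.05) and KRT18 (0.01) were not called. Of the same markers, KRT19 (0.0748 to 0.453 CPM) and EPCAM (0.650 to 1.61 CPM) were low in all 4 libraries and were not called. The 7 leukocyte markers summed to 2.72 to 3.70 CPM in OE_CBX7 libraries and 2.05 to 2.56 CPM in Control libraries, with CD3E and MS4A1 at 0 in all 4 libraries. Sums over 4 fibroblast markers were 7.19 to 7.95 CPM in OE_CBX7 and 5.08 to 7.46 CPM in Control libraries. Those over 3 endothelial markers were 2.86 to 3.58 CPM in OE_CBX7 and 0.835 to 1.56 CPM in Control libraries. The leukocyte marker CD14 (log2 fold change 1.10) and the endothelial marker CDH5 (1.73) were called higher in OE_CBX7 cells.

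In every one of the 10 genes both OE_CBX7 libraries lay far below both Control libraries. Their CPM summed to 41.7 and 55.4 in OE_CBX7 libraries, against 3056 and 2746 in Control libraries. Of the 17271 genes tested over the whole table, 24.4% were called in either direction at an adjusted p under 0.05, 13.9% lower and 10.5% higher. Since the 10 genes were chosen from this contrast, no call is given for them. Nothing is read from the lack of overlap between the groups. The share of all tested genes without overlap was not determined, so nothing is read from it for single genes or ratios below either. Log2 fold changes, here always OE_CBX7 over Control, ran from -9.80 for XAF1 to -3.93 for IFI35 with a median of -7.59. Over all genes tested the median was 0.000, the 5th percentile -1.745 and the 95th percentile 1.040. In bulk RNA, fewer cells that express a gene and less of its RNA per cell cannot be told apart.

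**Figure D2:**
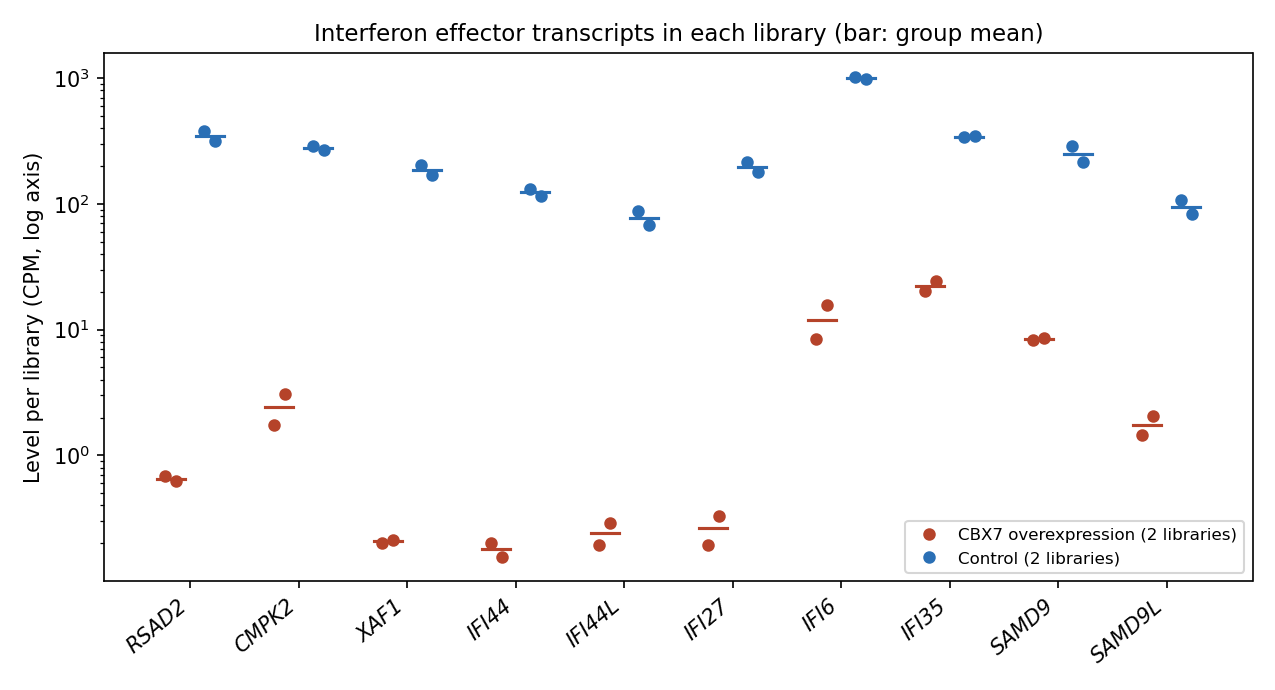
Level of each of the 10 genes in each library, in CPM on a log axis, with OE_CBX7 libraries in red left of Control libraries in blue and a short bar at each group mean (n = 2 libraries). All red points lie below all blue points of the same gene, and XAF1, IFI44, IFI44L, IFI27 and RSAD2 are under 1 CPM in both OE_CBX7 libraries.

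RSAD2 encodes viperin, a radical SAM enzyme that turns the nucleotide CTP into a chain terminator of viral RNA polymerases. It lies at chr2:6865885-6898239 (+, GRCh38.p14). RSAD2 had 0.683 and 0.621 CPM (64 and 56 counts) in OE_CBX7 libraries, against 382 and 315 CPM (32948 and 21515 counts) in Control libraries. Both OE_CBX7 libraries were close to each other and under 1 CPM, and 0.187% of the Control mean was left. The log2 fold change was -9.06 (SE 0.16), or 533.5-fold lower.

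CMPK2, at chr2:6840553-6866635 (-), is the head-to-head neighbour of RSAD2 and encodes a mitochondrial kinase of UMP and CMP, on the path to the CTP that viperin uses. It had 1.75 and 3.06 CPM (164 and 276 counts) in OE_CBX7 libraries, against 286 and 270 CPM (24630 and 18437 counts) in Control libraries. The groups did not overlap, and the OE_CBX7 libraries differed 1.75-fold from each other while the Control libraries differed 1.06-fold. The log2 fold change was -6.85 (SE 0.28). The ratio of RSAD2 to CMPK2 CPM was 0.390 and 0.203 in OE_CBX7 libraries, against 1.34 and 1.17 in Control libraries. The size of such a ratio depends on transcript length, so only its difference between libraries is read here. That reading assumes the same transcripts in all 4 libraries, which was not tested. RSAD2 was thus lower relative to its neighbour in both OE_CBX7 libraries, a difference in log2 fold change of -2.21. The annotated spans of the pair overlap by 751 bases, of which 14 are exonic on both strands in GENCODE v29. Strandedness is not given in the sources used here, so reads from those bases cannot be assigned to one of the pair.

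XAF1, at chr17:6755447-6775647 (+), encodes a zinc finger protein that binds the apoptosis inhibitor XIAP and opposes it. XAF1 had 0.203 and 0.211 CPM (19 counts in each library) in OE_CBX7 libraries, against 203 and 169 CPM (17509 and 11514 counts) in Control libraries. Its log2 fold change was -9.80 (SE 0.19), and 0.111% of the Control mean was left. That was the lowest log2 fold change of the 10 with all 4 libraries, but without OE_CBX7 library 2 IFI27 was lower, at -9.98, against -9.82 for XAF1. The 38 counts of both OE_CBX7 libraries carry an exact 95% Poisson interval of 26.9 to 52.2, which covers counting error only. Of the 3574 windows of 50 bases in its principal transcript, 2488 (69.6%) also occur in the antisense long non-coding RNA PRAL. Without strand information reads from those windows cannot be assigned to XAF1 or PRAL, so the counts of XAF1 may hold reads of PRAL. XIAP itself had 9052 and 7622 counts in OE_CBX7 libraries, against 8964 and 6676 counts in Control libraries, and was not called (log2 fold change -0.16, adjusted p = 0.344 by edgeR's quasi-likelihood test).

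IFI44 (chr1:78649789-78664078, +) and IFI44L (chr1:78620448-78646145, +) are paralogs that lie in the same direction, 3643 bases apart, and encode cytoplasmic proteins with a GTPase-like domain. IFI44 had 0.203 and 0.155 CPM (19 and 14 counts) in OE_CBX7 libraries, against 132 and 116 CPM (11381 and 7910 counts) in Control libraries. IFI44L had 0.192 and 0.288 CPM (18 and 26 counts) in OE_CBX7 libraries, against 87.1 and 67.5 CPM (7503 and 4608 counts) in Control libraries. Neither gene overlapped between the groups, and no window of 50 bases in either transcript occurs in a transcript of another gene. The log2 fold change was -9.42 (SE 0.19) for IFI44 and -8.33 (SE 0.22) for IFI44L. The ratio of IFI44 to IFI44L CPM was 1.06 and 0.538 in OE_CBX7 libraries, against 1.52 and 1.72 in Control libraries, without overlap and with a difference in log2 fold change of -1.10. In OE_CBX7 libraries that ratio rests on 33 counts of IFI44 (exact 95% Poisson interval 22.7 to 46.3) and 44 of IFI44L (32.0 to 59.1).

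IFI27 and IFI6 belong to a family of small hydrophobic membrane proteins: IFI27 is found at mitochondria, and IFI6 is known for blocking flavivirus replication at the endoplasmic reticulum. IFI27 (chr14:94105894-94116690, +) had 0.192 and 0.333 CPM (18 and 30 counts) in OE_CBX7 libraries, against 214.5 and 179 CPM (18481 and 12209 counts) in Control libraries. IFI6 (chr1:27666064-27672192, -) had 8.37 and 15.6 CPM (784 and 1407 counts) in OE_CBX7 libraries, against 1019 and 986 CPM (87762 and 67262 counts) in Control libraries. Neither gene overlapped between the groups, and the OE_CBX7 libraries of IFI6 differed 1.86-fold from each other, the widest spread among the 10. The log2 fold change was -9.55 (SE 0.21) for IFI27 and -6.39 (SE 0.47) for IFI6. IFI27L1 and IFI27L2, paralogs that flank IFI27 at 3.19 and 11.1 kb, were not called. IFI27L1 had 328 and 353 counts in OE_CBX7 libraries, against 316 and 268 in Control libraries, and IFI27L2 had 564 and 564 counts in OE_CBX7 libraries, against 498 and 410 in Control libraries. Their log2 fold changes were -0.03 (adjusted p = 0.947) and 0.06 (adjusted p = 0.885) by edgeR's quasi-likelihood test.

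IFI35 (chr17:43006784-43014456, +) encodes a leucine zipper protein that pairs with NMI. It had 20.3 and 24.5 CPM (1902 and 2211 counts) in OE_CBX7 libraries, against 337 and 348 CPM (29045 and 23730 counts) in Control libraries. Libraries of a group lay close together, the groups did not overlap, and 6.54% of the Control mean was left, the most among the 10. IFI35 had a log2 fold change of -3.93 (SE 0.12), or 15.3-fold lower. NMI had 1522 and 1717 counts in OE_CBX7 libraries, against 12483 and 9446 counts in Control libraries, and fell with a log2 fold change of -3.01 (adjusted p = 2.83e-10 by edgeR's quasi-likelihood test).

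SAMD9 (chr7:93099518-93117979, -) and SAMD9L (chr7:93130056-93148385, -) are paralogs 12076 bases apart that restrict poxviruses and shut down protein synthesis. SAMD9 had 8.30 and 8.59 CPM (777 and 775 counts) in OE_CBX7 libraries, against 288 and 214 CPM (24807 and 14579 counts) in Control libraries. SAMD9L had 1.46 and 2.05 CPM (137 and 185 counts) in OE_CBX7 libraries, against 106 and 82.3 CPM (9164 and 5619 counts) in Control libraries. Both genes were apart between the groups by far more than the libraries of a group differed. The log2 fold change was -4.89 (SE 0.15) for SAMD9 and -5.75 (SE 0.19) for SAMD9L. The ratio of SAMD9L to SAMD9 CPM was 0.176 and 0.239 in OE_CBX7 libraries, against 0.369 and 0.385 in Control libraries, a difference in log2 fold change of -0.86.

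**Figure D3:**
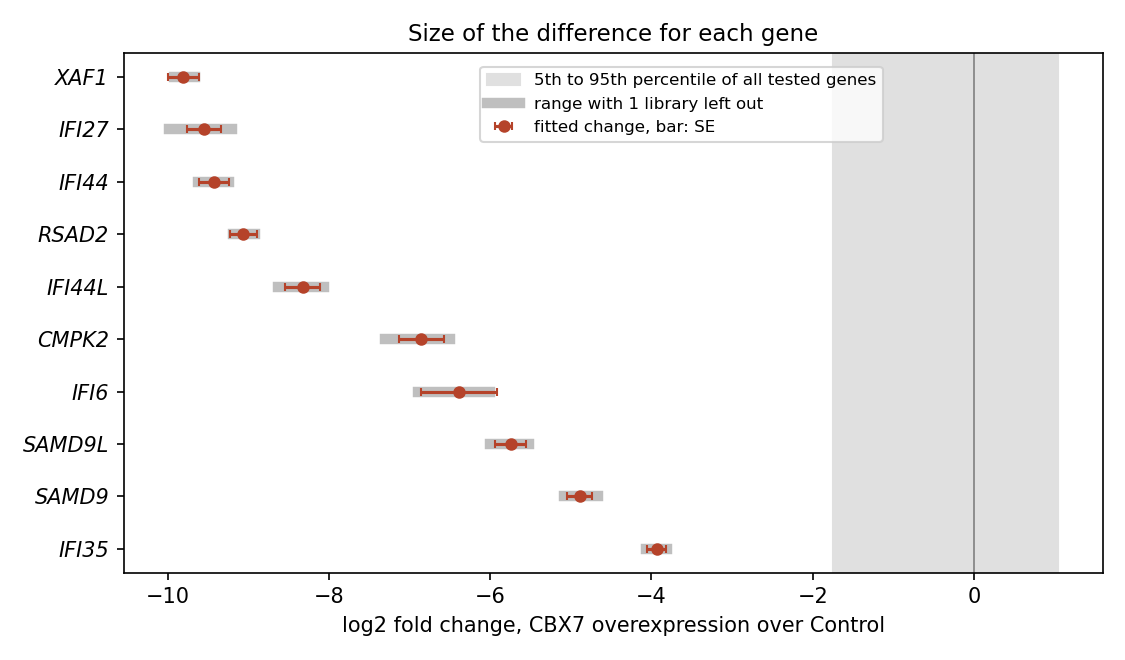
Log2 fold change of each gene, OE_CBX7 over Control, with its SE (red bar) and the range when 1 of the 4 libraries is left out (dark grey bar). XAF1 lies at -9.80 and IFI35 at -3.93, and all 10 lie below the light grey band that spans the 5th to the 95th percentile of all tested genes.

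When 1 library at a time was left out, the widest range of log2 fold changes was that of IFI6, between -6.89 and -6.00, followed by that of CMPK2, between -7.30 and -6.50. Control library 1 was above Control library 2 in 9 of 10 genes, all but IFI35, and OE_CBX7 library 2 was above OE_CBX7 library 1 in 8 of 10, all but RSAD2 and IFI44. The values of 1 library share its depth and composition, and replicates of a group have no order.

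Levels can be set against each other only per length, here as CPM per kb of the principal GENCODE v29 transcript. In OE_CBX7 cells IFI35 (18.2 ± 2.40) and IFI6 (14.6 ± 6.21) were highest on this scale and overlapped, followed by SAMD9 at 1.23 and CMPK2 at 0.834. IFI27 (0.362) and SAMD9L (0.246) overlapped, and RSAD2 (0.185), IFI44 (0.106), XAF1 (0.0571) and IFI44L (0.0409) came below them. In Control cells IFI6 was highest at 1219 ± 28.3, and IFI35 (278 ± 6.08) and IFI27 (271 ± 34.7) overlapped below it. RSAD2 at 99.2 and CMPK2 at 96.4 CPM per kb also overlapped in Control cells, then came IFI44 at 73.5, XAF1 at 51.3 and SAMD9 at 36.6, and SAMD9L and IFI44L overlapped at 13.2 each. Places in this order depend on the length used. Per kb of merged exons, an alternative added after the data had been seen, IFI27 was at 0.0633 in OE_CBX7 cells and 47.4 in Control cells. On that scale XAF1 was at 0.0313 in OE_CBX7 cells and 28.1 in Control cells, below SAMD9 at 36.6 in Control cells, and IFI44L was at 0.0235 in OE_CBX7 cells and 7.55 in Control cells. IFI6 was above IFI35 on that scale in OE_CBX7 cells, at 13.9 and 11.4, with overlap.

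The genes that carry the interferon signal were followed along the pathway, from a list of 49 genes in the table, of which 48 were tested with edgeR's quasi-likelihood test over all genes. Of these, 39 were lower in OE_CBX7 cells, 0 were higher and 9 were not called, with a median log2 fold change of -4.04. Among all tested genes 13.9% were called lower. The list was written with earlier results of these data known, so its counts are a description and not independent support. Among the ligands, 4 of 5 were lower. IFNL1 had 0 and 0 counts in OE_CBX7 libraries, against 2697 and 1460 in Control libraries, at least 807-fold lower on a floor of 3 counts per library. IFNL2 also had 0 in both OE_CBX7 libraries, against 3483 and 2094 counts in Control libraries, but it is nearly identical in sequence to IFNL3 and reads could be split between them. A listed 0 can also be a failed estimate of the count. IFNE lost its call without Control library 2 (adjusted p = 0.0625) and without OE_CBX7 library 2 (0.0606). IFNB1, the fibroblast type I interferon, had 31 and 0 counts in OE_CBX7 libraries, against 2035 and 1196 in Control libraries, and was not called (adjusted p = 0.0831), while DESeq2 gave an adjusted p of 0.027 and limma-voom one of 0.000202.

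Receptors and their kinases differed little. Of 4 receptor subunits only IFNAR2 was called, with a log2 fold change of -0.44 (adjusted p = 0.0095 by edgeR's quasi-likelihood test), and that call was lost without OE_CBX7 library 1 (0.0798) and without OE_CBX7 library 2 (0.107). JAK1 had a log2 fold change of -0.12 and TYK2 of 0.06, and neither was called. STAT2 and IRF9 fell: STAT2 had 1775 and 1406 counts in OE_CBX7 libraries, against 17162 and 14364 in Control libraries (log2 fold change -3.57, adjusted p = 6.64e-11), and IRF9 a log2 fold change of -2.54. Without Control library 1 the adjusted p of IRF9 was 0.0502. The factors IRF1 (-4.08) and IRF7 (-5.17) were lower too, whereas IRF3, which is present before any signal and is activated by phosphorylation, was not called (0.08, adjusted p = 0.716). Feedback inhibitors fell in 3 of 5 cases, USP18 by 3.97, SOCS1 by 4.00 and SOCS3 by 2.13 on the log2 scale.

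All 26 further interferon-stimulated genes that were tested were lower, beside 13.9% of all tested genes. EPSTI1, also on the list, was too low to be tested, with 6 and 4 counts in OE_CBX7 libraries, against 1 and 0 in Control libraries. OAS2, a sensor of double-stranded RNA, had 67 and 47 counts in OE_CBX7 libraries, against 81681 and 52963 in Control libraries (log2 fold change -10.44, adjusted p = 1.99e-13 by edgeR's quasi-likelihood test). IFIT3, which binds viral RNA together with IFIT1, had a log2 fold change of -7.95, HERC5, the ligase that attaches ISG15, of -6.04, the RNA sensor IFIH1 of -5.74, the viral entry inhibitor IFITM3 of -7.28 and HELZ2, a helicase, of -4.71. IFIT1 (709 and 1553 counts), MX2 (0 and 28), OASL (124 and 265) and ISG15 (433 and 860) differed widely between the OE_CBX7 libraries. Their Control libraries lay closer together in CPM, and their calls were lost when Control library 1 or Control library 2 was left out. Without Control library 1 their adjusted p was 0.184, 0.184, 0.126 and 0.148 in that order, and without Control library 2 it was 0.108, 0.101, 0.0633 and 0.0762, with log2 fold changes between -9.23 and -7.08 throughout.

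Genes of proteins that work with these effectors were examined in the same fit. Of 23 tested paralogs, binding partners and enzymes of pyrimidine nucleotide supply, 5 were lower, 4 higher and 14 not called by edgeR, with a median log2 fold change of 0.065, beside 13.9% of all tested genes called lower and 10.5% higher. Besides NMI, the lower genes were the apoptosis inhibitors BIRC3 (log2 fold change -2.50, adjusted p = 5.09e-09) and BIRC2 (-1.32, adjusted p = 4.19e-06), the CTP synthase CTPS1 (-0.45, adjusted p = 0.00273) and TRAF6, a signalling ligase that viperin binds (-0.49, adjusted p = 0.0196). FDPS, the farnesyl diphosphate synthase that viperin binds, was higher (0.67, adjusted p = 0.000236), as were DTYMK, the thymidylate kinase (0.61, adjusted p = 0.00218), NME4, a mitochondrial nucleoside diphosphate kinase (0.42, adjusted p = 0.00813), and BIRC5, survivin (0.34, adjusted p = 0.0298). The call of BIRC5 was lost in 3 of the 4 fits that left out 1 library (adjusted p 0.152, 0.0632 and 0.216), that of NME4 without OE_CBX7 library 2 (0.0644), and that of TRAF6 in 3 of the 4 (0.0565, 0.121 and 0.147). CMPK1, the cytosolic UMP and CMP kinase, had 16128 and 17182 counts in OE_CBX7 libraries, against 14040 and 9507 counts in Control libraries, and was not called (0.26, adjusted p = 0.0928). It was called higher when library totals replaced TMM (adjusted p = 0.0363) and without Control library 1 (0.0352).

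The nearest protein-coding genes on each side of the 7 loci, chosen by position alone, were examined in the same fit. Of 28 such genes 27 were in the table and 19 had enough counts to be tested: 8 were lower, 1 was higher and 10 were not called, beside 13.9% of all tested genes lower and 10.5% higher. VAT1, a vesicle membrane protein, was the higher one, and its annotated span lies 0.151 kb from that of IFI35. It averaged 141 ± 0.969 CPM in OE_CBX7 cells and 60.4 ± 15.7 CPM in Control cells (SD, n = 2 each; log2 fold change 1.22, SE 0.15, adjusted p = 8.6e-05 by edgeR's quasi-likelihood test). RPL27, a ribosomal protein gene on the other side of IFI35 at 3.83 kb, was not called (0.07). Next to RSAD2 at 19.2 kb, the ubiquitin ligase RNF144A was lower (-0.66, adjusted p = 0.0018), as was ID2, an inhibitor of helix-loop-helix factors, at 1780 kb (-1.34, adjusted p = 7.01e-06).

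Around IFI27, the helicase gene DDX24 at 24.7 kb (-0.56, adjusted p = 0.00146) and PPP4R4, a phosphatase subunit, at 57.6 kb (-2.70, adjusted p = 0.00532), were lower in the edgeR fit with the paralogs IFI27L1 and IFI27L2 between them not called. The call of PPP4R4 was lost without Control library 1 (adjusted p = 0.0746). VPS50, at 84 kb the nearest tested gene to SAMD9 and SAMD9L, was not called (0.00). On the other side CDK6, a kinase of the G1 phase, was lower at 263 kb (-0.50, adjusted p = 0.00846), as was FAM133B at 509 kb (-0.68, adjusted p = 0.0013). The call of CDK6 was lost without OE_CBX7 library 2 (0.187). GIPC2, 482 kb from IFI44L, had 0 and 0 counts in OE_CBX7 libraries, against 18 and 10 in Control libraries, at least 5.44-fold lower, and its call was lost in every fit that left out 1 library. Near IFI6, FAM76A at 53.8 kb (-0.09) and AHDC1 at 61.8 kb (0.31) were not called. STX12, at 101 kb from IFI6, was lower with a log2 fold change of -0.62 and lost its call without Control library 1 (0.0708) and without OE_CBX7 library 1 (0.0881). NRIR, a long non-coding RNA 88 bases from CMPK2 that was picked after its values had been seen, had 0 and 0 counts in OE_CBX7 libraries, against 149 and 194 in Control libraries, at least 70.03-fold lower.

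**Figure D4:**
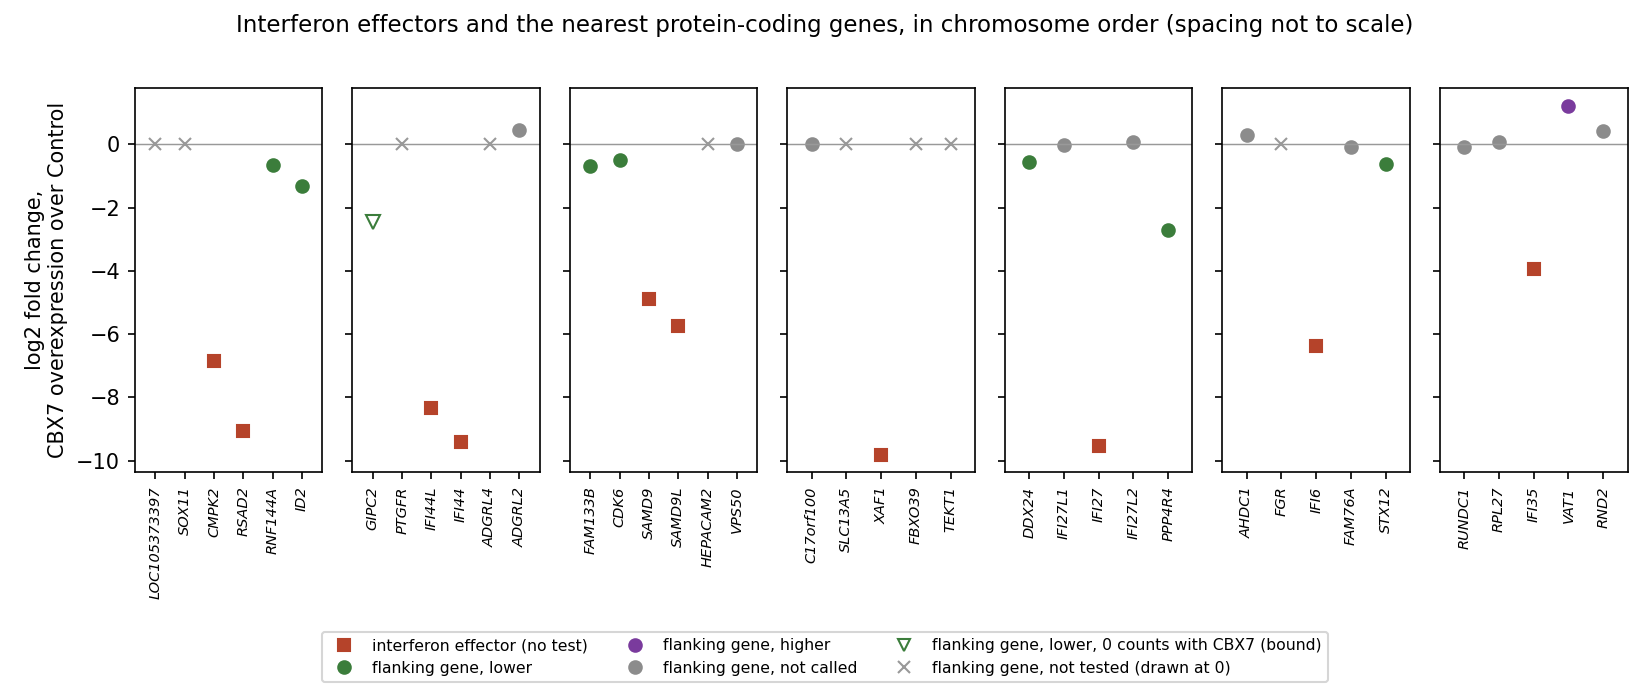
Log2 fold change, OE_CBX7 over Control, of the 10 interferon effectors (red squares) and the nearest protein-coding genes on each side of the 7 loci, 1 panel per locus in chromosome order with spacing not to scale. The effectors lie between -9.80 and -3.93, while 8 flanking genes are lower (green, GIPC2 drawn at its bound), 1, VAT1 at 1.22, is higher (purple), 10 are not called (grey) and 9 were not tested (crosses drawn at 0).

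The genes whose profile over the 4 libraries lay nearest to the mean profile of the 10 were IFITM3 (distance 0.23), LGALS9 (0.35), BST2 (0.36), LAMP3 (0.44) and IFITM1 (0.455). Distance is Euclidean, on log2 CPM centred on each gene's mean, among genes with a mean CPM of 1 or more. IFITM3 had 62 and 66 counts in OE_CBX7 libraries, against 10531 and 6411 in Control libraries, and LGALS9, a galectin, had 19 and 33 counts in OE_CBX7 libraries, against 4499 and 2951 in Control libraries. BST2 had 67 and 65 counts in OE_CBX7 libraries, against 10163 and 6141 in Control libraries. IFITM3 has a near-identical copy, IFITM2, and how shared reads were counted is not given in the sources used here. Nearest to RSAD2 were DAPP1 (0.31), ACTN2 (0.34), TNFRSF14 (0.67), NRIR (0.86) and IFIT2 (1.04). The first 4 of these had 0 counts in both OE_CBX7 libraries, so their distance depends on the prior count of 0.5 that was added.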

How the data were processed

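The authors deposited 1 table of estimated counts per gene and library, keyed by gene symbol and all whole numbers. The submitters' processing notes name the build hg38 and the tools StringTie 2.2.1, HISAT2 2.2.1 and DESeq2 without saying what each did. Annotation, strandedness and how shared reads were counted: not given in the sources used here. The counts of all 4 libraries (2 per group, from their labels) were fitted with edgeR 4.0.16 in R 4.3.3: filterByExpr, TMM scaling, a robust quasi-likelihood test with group as the only term, and Benjamini-Hochberg adjustment over 17271 genes. Calls needed an adjusted p under 0.05. The scripts were tested on simulated data. DESeq2 1.42.0, limma-voom (limma 3.58.1), other scalings, other count filters, a replicate block and leaving out each library were alternatives. Libraries of a group differed beyond sampling noise, with a chi-square over its degrees of freedom of 45.5 in OE_CBX7 and 58.5 in Control, and were kept as separate libraries. Folds against 0 counts use a floor of 3 counts per library (0.0320 and 0.0333 CPM in OE_CBX7, 0.0348 and 0.0440 in Control), which covers counting error only. Promoters and coordinates came from RefSeq GRCh38.p14, and transcript lengths from GENCODE v29. The 10 genes and the lists were chosen with earlier results of these data known. Beside them the text names, by rule, the genes with the smallest p in each list, those called against the majority of a list and the nearest profiles; other names were chosen after their values were seen.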

Additional observations from a re-analysis of the deposited data

How the results depend on the processing

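Over 12 alternatives, 0 of 120 log2 fold changes of the 10 genes were reversed. Under the alternatives that kept all 4 libraries each moved by less than the spread between replicates; leaving out a library cannot test this, since it moves a group mean only within that spread. Leaving out 1 library gave a median of the 10 between -7.97 and -7.28. It also gave 1021 to 1790 genes called higher (1021 without OE_CBX7 library 1 and 1121 without OE_CBX7 library 2), 5 to 7 flanking genes lower (5 without Control library 1), and 2 to 5 paralogs and partners higher (2 without OE_CBX7 library 2). Scaling by library totals moved the median of all genes by 0.07 on the log2 scale and gave 2486 genes higher and 2033 lower, against 1809 and 2399 with TMM. The share of promoter windows with the motif was 3.02% over the 250 bases before the start alone and 3.12% with half-sites 1 base apart. The deviations of same-numbered libraries had a correlation of 0.013 across genes over 2 pairs, too few to tell whether the replicate numbers pair the libraries. With the replicate block 2100 genes were higher and 2503 lower, 35 interferon pathway genes and 7 flanking genes were lower, and IFIT1 (adjusted p = 0.13), MX2 (0.151), OASL (0.0704), ISG15 (0.116) and GIPC2 (0.107) were not called by edgeR's quasi-likelihood test. Where 1 library was left out, the lone library of its group was assumed to vary like the other group. In OE_CBX7 libraries 5 genes had both values below 1 CPM, where depth limits any comparison between them.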
